A study of Mus musculus with 12 samples.

Results

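Interleukin-10 (IL-10) signalling was examined through 8 genes of the pathway in whole 4T1 tumors. They were Il10, the receptor chains Il10ra and Il10rb, the receptor-bound kinases Jak1 and Tyk2, the transcription factor Stat3, and the IL-10-responsive genes Socs3 and Bcl3. These genes are listed by name for their place in the pathway, a choice made with earlier results of these data known, out of 55401 genes listed in the expression table. All 8 passed a filter on low values that 15504 genes passed, a level of at least 1 TPM (transcripts scaled to a fixed total per library) in at least 3 of 12 libraries.

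4T1 is a mammary carcinoma line of Balb/c mice, and its cells were injected orthotopically into mice of that strain, bought at 6 to 8 weeks of age. Dosing began once tumors reached 100 mm3, for 6 doses by the sample labels and 4 doses by the series text, and each group held 3 tumors. The control group received a control isotype (IgG1-Fc), the IL-10-Fc group recombinant IL-10 joined to an Fc, and the aCSF1R group a CSF1R antibody. The BF10 group received the fusion protein, which by the study's methods is the CSF1R antibody clone AFS98 in a mouse IgG2a format with human IL-10 at its C-terminus. All 12 tumors grew from 1 cell line, so the groups compare treatments within a single tumor model. The IL-10 reached these mice as protein, so the Il10 level below is that of the mouse transcript alone. P-values measure the spread between tumors given the same treatment.

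IL-10 acts through a receptor of 2 chains. IL-10RA binds the cytokine with high affinity and is found mainly on blood-derived cells, above all macrophages, while IL-10RB is widespread and is shared with other cytokines of the family. Binding brings JAK1 and TYK2 together, STAT3 is phosphorylated and enters the nucleus, and genes such as Socs3, a feedback inhibitor of cytokine receptors, and Bcl3, an atypical IκB protein that limits inflammatory transcription, are induced in macrophages. STAT3 activation itself is a change in phosphorylation and is not read out by mRNA. CSF1R is the receptor that macrophages need to survive, so the aCSF1R and BF10 proteins both bear on the cells that carry the IL-10 receptor.

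The libraries differed in a way that no label names. The 5 higher-sum libraries (control 4 and 7, IL-10-Fc 7, aCSF1R 8 and BF10 6) had FPKM sums of 782919 to 921581, and the 7 lower-sum libraries had sums of 609695 to 648413. Mitochondrial transcripts took 5.90% to 9.26% of TPM in the first set and 3.14% to 3.96% in the second. Estimated depth was alike, at 31700000 to 36400000 reads. Control held 2 higher-sum libraries and every treated group held 1, so each comparison with control is given in 2 forms, from the groups alone and with the library set as a term of the model.

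In all, 7 of the 8 genes, the exception being Il10, were lower in the higher-sum libraries. Stat3 showed the widest gap, 1.95 lower on the log2(TPM + 1) scale at the same treatment (SE 0.18, limma adjusted p = 1.91e-05). It read 16.7 to 35.6 TPM in the 5 higher-sum libraries and 86.8 to 114 TPM in the 7 lower-sum ones, with no overlap. The median gap over all 15504 genes was also negative, at -0.68. For Il10 the sign was the opposite, 0.50 higher with an adjusted p = 0.0687. In that model the gap between library sets was wider than every difference from control for 6 of the 8 genes, all but Il10ra and Il10.

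**Figure D1:**
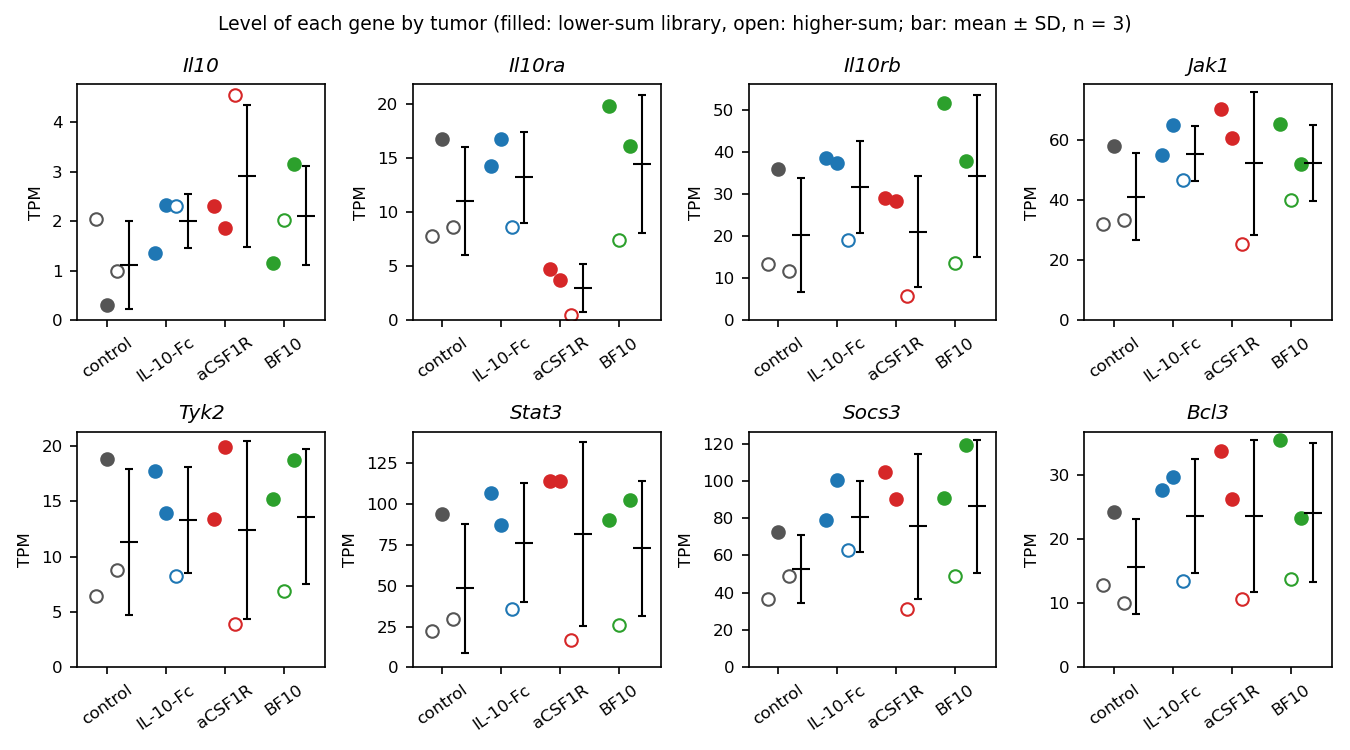
Level of each of the 8 genes in each tumor, in TPM from 0, by treatment group; filled points are lower-sum libraries, open points higher-sum libraries, and the bar to the right of each group is its mean ± SD (n = 3). For Il10ra the 3 aCSF1R tumors sit at 0.510 to 4.73 TPM, below the 9 others, while for Stat3 the open points lie below the filled ones whatever the treatment.

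Averaged over 12 libraries, Socs3 (73.9 TPM) and Stat3 (69.8 TPM) were the most abundant of the 8, followed by Jak1 (50.4 TPM), Il10rb (26.8 TPM), Bcl3 (21.8 TPM), Tyk2 (12.7 TPM), Il10ra (10.4 TPM) and Il10 (2.03 TPM). Socs3 was above 87.2% of the genes tested and Il10 above 16.5%. Some neighbours in that order were separated within libraries and others were not. Jak1 lay above Il10rb, and Bcl3 above Tyk2, in all 12 libraries. Socs3 lay above Stat3 in 8 of 12, Stat3 above Jak1 in 7, Il10rb above Bcl3 in 9, Tyk2 above Il10ra in 7 and Il10ra above Il10 in 11. The ends of the order did not meet, with Il10 at 4.55 TPM or less and Jak1 at 25.5 TPM or more in every library.

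The first question was whether the pathway's own transcripts differed between tumors given the protein and control tumors. A gene was called changed at a limma adjusted p below 0.05 and a change of at least 1.5-fold, and on the groups alone 0 of the 8 genes were called in any of 6 comparisons. The share of all genes called was 0% for BF10 against control, 0.00645% for IL-10-Fc against control, 0.568% for aCSF1R against control, 0% for BF10 against IL-10-Fc, 0.735% for BF10 against aCSF1R and 0.142% for tumors given IL-10 (BF10 and IL-10-Fc, 6 tumors) against those not given it (aCSF1R and control, 6 tumors). At an unadjusted p below 0.05 the counts were 0 of 8 for BF10 against control, IL-10-Fc against control and BF10 against IL-10-Fc, 2 of 8 for aCSF1R against control (Il10ra, Il10), and 1 of 8 (Il10ra) for both BF10 against aCSF1R and IL-10 given against not given. With the library set as a term, Il10ra was called in 3 of the 6 comparisons and the other 7 genes in none. There the shares of all genes called were 0.00645% for BF10 against control, 0.0258% for IL-10-Fc against control, 0% for BF10 against IL-10-Fc, 2.01% for aCSF1R against control, 2.82% for BF10 against aCSF1R and 1.39% for IL-10 given against not given.

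Il10ra, the ligand-binding chain, was the gene that set the aCSF1R tumors apart. It read 16.7, 7.75 and 8.56 TPM in the control tumors, 14.2, 16.8 and 8.56 TPM under IL-10-Fc, 19.8, 7.42 and 16.1 TPM under BF10, and 4.73, 3.74 and 0.510 TPM under aCSF1R. All 3 aCSF1R values were below all 9 others, while the control, IL-10-Fc and BF10 ranges overlapped. Il10ra was the 1 gene of the 8 whose groups did not overlap in any of the 6 comparisons, and this was so in 2 of them, aCSF1R against control and BF10 against aCSF1R. The share of all genes without overlap was 3.53% for BF10 against control, 6.53% for IL-10-Fc against control, 0.264% for IL-10 given against not given and 2.13% for BF10 against IL-10-Fc. The group means were 11.0 ± 4.97 TPM for control, 13.2 ± 4.20 for IL-10-Fc, 14.4 ± 6.33 for BF10 and 2.99 ± 2.21 for aCSF1R (SD, n = 3).

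For aCSF1R against control, where 5.28% of all genes had groups that did not overlap, the Il10ra difference was -1.73 on the log2(TPM + 1) scale (SE 0.55, 95% interval -2.94 to -0.51, limma adjusted p = 0.598), or 0.302-fold. The median over all genes in that comparison was 0.24. With the library set as a term the difference was -2.12 (SE 0.23, interval -2.62 to -1.62, adjusted p = 0.000409), or 0.231-fold, and Il10ra fell past the threshold. Within sets it was -1.77 among lower-sum libraries (2 tumors against 1) and -2.60 among higher-sum libraries (1 against 2), the same direction in both. Under the set term, leaving out each of the 12 libraries in turn kept the call, with limma adjusted p between 0.000537 and 0.00407. On the groups alone, leaving out 1 library called Il10ra in 0 of the 12 fits.

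The fusion protein contains a CSF1R antibody as well, and here its tumors stood with the controls. For BF10 against aCSF1R, where 5.91% of all genes did not overlap, Il10ra was higher by 2.06 (SE 0.55, interval 0.84 to 3.28, adjusted p = 0.247), or 4.17-fold. The same difference, 2.06 (SE 0.22), had an adjusted p = 0.000326 with the set as a term, and it stayed called without any of the 12 libraries (adjusted p 0.000402 to 0.00282). The BF10 and aCSF1R groups each held 1 higher-sum library, so the term left the size of the difference as it was and narrowed its error. The size of this difference also exceeded that of IL-10-Fc against control. The gap between the 2 differences was 1.79 on the groups alone (adjusted p = 0.975, with 0.29% of all genes called) and 2.18 under the set term (SE 0.32, adjusted p = 0.00567, with 1.21% of all genes called). BF10 and aCSF1R share the antibody and differ in the IL-10 part, and the study dosed them at different weights to match their molecular masses.

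Against control, Il10ra was 0.34 higher under BF10 (interval -0.88 to 1.55, adjusted p = 0.791) and 0.27 higher under IL-10-Fc (interval -0.95 to 1.48, adjusted p = 0.798). Under the set term these became -0.05 (interval -0.55 to 0.44) and -0.12 (interval -0.62 to 0.38), with the sign turned in both. BF10 and IL-10-Fc differed by 0.07 (interval -1.15 to 1.29). None of these 3 intervals excluded 0, and they leave room for changes of about the size shown by their bounds.

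In tumors given IL-10 against those not given it, Il10ra was 1.16 higher (SE 0.39, adjusted p = 0.779), and 0.97 higher with the set as a term (SE 0.16, interval 0.62 to 1.32, adjusted p = 0.0123). That contrast averages the aCSF1R and control groups, and the Il10ra values of the 6 tumors not given IL-10 ran from 0.510 to 16.7 TPM and overlapped those of the 6 that were (7.42 to 19.8 TPM). The call was lost in 2 of 12 fits that left out a library, without control 5 (adjusted p = 0.0841) and without IL-10-Fc 7 (adjusted p = 0.0545).

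Macrophage markers, like Il10ra, were lowest in the aCSF1R tumors. The 12 macrophage markers (Adgre1, Csf1r, Cd68, C1qa, C1qb, C1qc, Mrc1, Msr1, Mertk, Fcgr1, Aif1, Cx3cr1) summed to 91.5 to 275 TPM in aCSF1R tumors, against 1937 to 2432 TPM in control, 1604 to 1791 TPM under IL-10-Fc and 1902 to 1988 TPM under BF10. Among the 9 others the sum did not follow Il10ra. The highest sum (2432 TPM, control 7) went with Il10ra at 8.56 TPM, and the highest Il10ra (19.8 TPM, BF10 3) with a sum of 1902 TPM. No marker of the 12 was at 0 in 6 or more of the 12 libraries. In aCSF1R against control 12 of 12 were lower and 8 were called (11 with the set as a term), and in BF10 against aCSF1R 12 of 12 were higher and 8 were called (12 with the set). In these bulk samples fewer cells of a type and less RNA per cell cannot be told apart, and the part of macrophage content in the Il10ra difference was not tested. Ptprc, which encodes the pan-leukocyte marker CD45, was 15.0 to 16.7 TPM in aCSF1R tumors and 29.7 to 72.1 TPM in the 9 others.

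**Figure D2:**
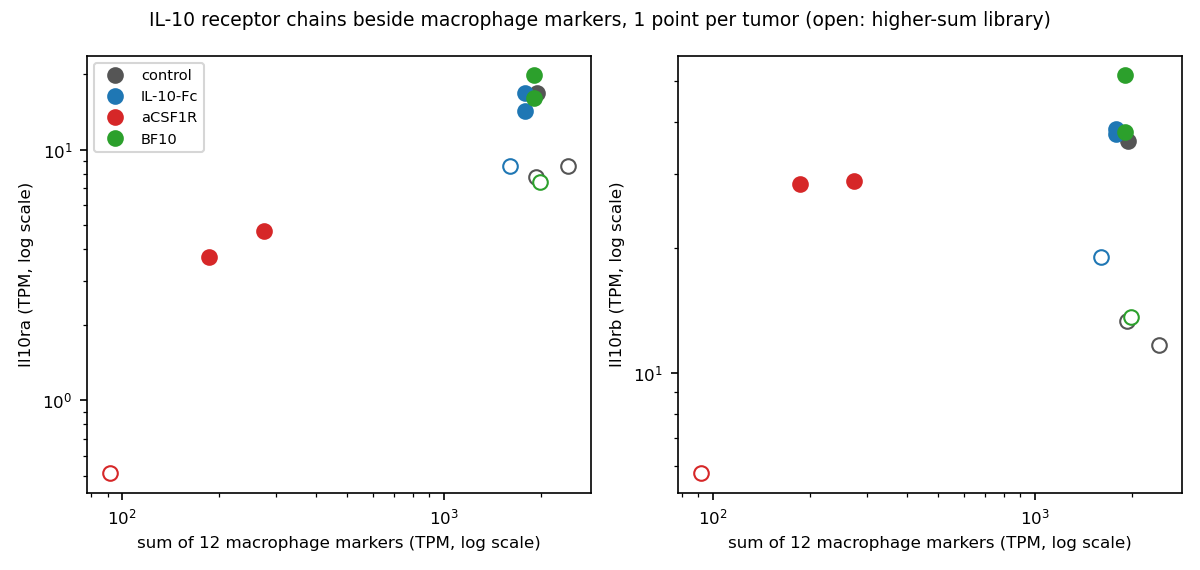
Il10ra (left) and Il10rb (right) in TPM against the summed TPM of 12 macrophage markers, both axes on a log scale, 1 point per tumor, open points for higher-sum libraries. The 3 aCSF1R tumors lie at the left, at marker sums of 91.5 to 275 TPM, and are lowest for Il10ra, and for Il10rb they are lowest among points of the same kind, at 28.4 and 28.9 TPM against 35.9 to 51.7 TPM for filled points and 5.75 against 11.7 to 19.0 TPM for open points.

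Relative to the sum of those markers Il10ra was not lower in the aCSF1R tumors. C1qa, C1qb and C1qc carried most of that sum, with control means of 694, 304 and 638 TPM. The ratio thus mostly follows these genes, and ratios to single markers were not computed. As a percentage of the macrophage marker sum Il10ra was 1.72% and 2.01% in the lower-sum aCSF1R libraries, against 0.796% to 1.04% in the 5 other lower-sum libraries. In the higher-sum aCSF1R library it was 0.558%, against 0.352% to 0.534% in the 4 others. As a percentage of Ptprc it was 28.3%, 24.9% and 3.33% in aCSF1R tumors, 18.3% to 53.7% in control, 19.0% to 47.8% under IL-10-Fc and 18.4% to 42.8% under BF10, and pooled over library sets 2 of the 3 aCSF1R tumors fell inside the other groups' ranges. Within the lower-sum libraries the 2 aCSF1R values (24.9% and 28.3%) stood against 27.4% to 53.7% in the 5 others, with only BF10 3 below the upper of them. In the higher-sum libraries 3.33% stood below the 18.3% to 19.0% of the 4 others. The ratio to Ptprc thus placed aCSF1R tumors low within sets, where the ratio to the macrophage marker sum placed them high. These ratios were looked at after the levels were known and are given as descriptions.

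Of all genes tested, those whose levels ran closest to Il10ra over the 12 libraries, once the mean of each library set was removed, were Rgs10 (r = 0.995), Nxpe5 (r = 0.994) and Aif1 (r = 0.994), the last of them on the macrophage list. The 12 points share their treatment groups and library sets, and the coefficients describe these libraries only.

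Il10rb, the shared chain, ran closest to Il10ra of all 28 pairs among the 8 genes once set means were removed (r = 0.88 over 12 libraries, which share groups and sets). It read 13.3, 35.9 and 11.7 TPM in control tumors, 38.6, 37.4 and 19.0 TPM under IL-10-Fc, 28.9, 28.4 and 5.75 TPM under aCSF1R and 51.7, 13.6 and 37.8 TPM under BF10, and all groups overlapped over the pooled libraries. In the lower-sum set the 2 aCSF1R tumors were lowest, at 28.4 and 28.9 TPM against 35.9 to 51.7 TPM in 5 others. In the higher-sum set the 1 aCSF1R tumor was lowest, at 5.75 TPM against 11.7 to 19.0 TPM in 4 others. How many of all genes share that order was not counted. On the groups alone aCSF1R differed from control by -0.06 (interval -1.57 to 1.45, adjusted p = 0.977). Modelling the set gave -0.58 (interval -1.08 to -0.07, adjusted p = 0.497), and BF10 was 0.78 above aCSF1R (interval 0.29 to 1.27, adjusted p = 0.130). Neither passed the threshold over all genes.

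The balance of the 2 chains also set the aCSF1R tumors apart. Il10rb was 6.12, 7.59 and 11.3 times Il10ra in the aCSF1R tumors and 1.37 to 2.71 times Il10ra in the 9 others, and no value of one set reached the other. Both levels are per length and come from the same library, so the ratio does not depend on how libraries are scaled. It was computed after the levels were seen and carries no test.

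Il10 itself was scarce. The mouse transcript read 2.05, 0.302 and 0.987 TPM in control tumors, 1.37, 2.33 and 2.30 TPM under IL-10-Fc, 2.31, 1.87 and 4.55 TPM under aCSF1R and 1.16, 2.01 and 3.15 TPM under BF10. The lowest value stood for about 7 reads and the highest for about 166, by the depth estimated from the table. The groups overlapped, since the control tumor at 2.05 TPM lay inside the range of each treated group.

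The aCSF1R tumors, where Il10ra was lowest, had the highest mean of Il10, 0.91 above control on the log2(TPM + 1) scale (interval 0.06 to 1.77, limma adjusted p = 0.893), and 1.08 with the set as a term (interval 0.38 to 1.78, adjusted p = 0.181). BF10 was 0.59 above control (interval -0.27 to 1.45) and IL-10-Fc 0.57 (interval -0.28 to 1.43), which became 0.76 (adjusted p = 0.993) and 0.74 (adjusted p = 0.942) with the set as a term. The sign was the same in all 3 treated groups and none passed the threshold. The control tumor at 0.302 TPM, the only lower-sum control, sets much of these differences, and without it the aCSF1R difference was 0.61 on the groups alone. Mast cell markers (Cpa3, Mcpt4, Kit, Ms4a2) summed to 24.7 to 125 TPM in aCSF1R tumors and to 5.66 to 18.7 TPM in the 9 others, without overlap. Taken singly, Mcpt4 did not overlap (9.77 TPM or more against 9.07 TPM or less), while Cpa3, Kit and Ms4a2 did. Of the 3 that passed the filter, 0 were called in any of the 6 comparisons by either fit. The part of mast cell markers in the Il10 level was not tested.

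Jak1 and Tyk2, the kinases bound to IL-10RA and IL-10RB, showed no called change. Jak1 read 32.1 to 58.0 TPM in control, 46.7 to 65.2 TPM under IL-10-Fc, 25.5 to 70.7 TPM under aCSF1R and 40.0 to 65.4 TPM under BF10. Its differences from control under the set term were 0.12 for BF10 (interval -0.34 to 0.57), 0.21 for IL-10-Fc (interval -0.24 to 0.67) and 0.02 for aCSF1R (interval -0.44 to 0.47). No bound of these intervals was further from 0 than 0.67 on the log2(TPM + 1) scale.

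Tyk2 read 6.40 to 18.8 TPM in control, 8.23 to 17.7 TPM under IL-10-Fc, 3.93 to 19.9 TPM under aCSF1R and 6.87 to 18.7 TPM under BF10. Its differences from control on the groups alone were positive and small (0.27 for BF10, 0.28 for IL-10-Fc, 0.02 for aCSF1R). All 3 turned negative with the set as a term (-0.15, -0.14 and -0.41), with adjusted p of 0.907 or more, so no direction is given for Tyk2.

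Stat3, the factor through which the receptor acts on transcription, was separated by library set, and its treatment groups overlapped. Among lower-sum libraries it was 93.5 TPM in the control tumor, 107 and 86.8 TPM under IL-10-Fc, 114 and 114 TPM under aCSF1R and 90.3 and 102 TPM under BF10. Among higher-sum libraries it was 22.0 and 29.5 TPM in control, 35.6 TPM under IL-10-Fc, 16.7 TPM under aCSF1R and 25.9 TPM under BF10. On the groups alone it was 0.64 above control under BF10 (interval -1.20 to 2.49) and 0.79 under IL-10-Fc (interval -1.06 to 2.64). Under the set term they were -0.01 (interval -0.54 to 0.53) and 0.14 (interval -0.39 to 0.68).

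Socs3, the feedback inhibitor, was higher in every tumor given IL-10 than in control tumors of the same library set, by margins as small as 48.9 against 48.8 TPM. How many of all genes share that order was not counted. Among lower-sum libraries it was 72.7 TPM in the control tumor, 79.2 and 101 TPM under IL-10-Fc and 90.6 and 119 TPM under BF10. Among higher-sum libraries it was 36.8 and 48.8 TPM in control, 62.7 TPM under IL-10-Fc and 48.9 TPM under BF10. The aCSF1R tumors read 105 and 90.5 TPM among lower-sum libraries, also above the control tumor, and 31.5 TPM in the higher-sum library, below both controls.

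None of this passed the test. Socs3 was 0.66 above control under BF10 (interval -0.39 to 1.72, adjusted p = 0.788) and 0.63 under IL-10-Fc (interval -0.42 to 1.69, adjusted p = 0.738). The medians over all genes there were 0.32 and 0.35. Allowing for the set, the differences were 0.33 (interval -0.19 to 0.85, adjusted p = 0.993) and 0.31 (interval -0.21 to 0.83, adjusted p = 0.942). The medians over all genes were then 0.07 and 0.10. In tumors given IL-10 against those not given it the difference was 0.45 (interval -0.29 to 1.20), and 0.29 with the set as a term (interval -0.07 to 0.65, adjusted p = 0.496). With the set as a term, an increase of up to 0.85 under BF10 or 0.83 under IL-10-Fc lies within the intervals against control. On the groups alone the intervals reach 1.72 and 1.69. The smallest change detectable with 3 tumors a group was not computed.

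Bcl3 gave a like picture at a lower level, with 10.1 to 24.2 TPM in control, 13.5 to 29.7 TPM under IL-10-Fc, 10.6 to 33.8 TPM under aCSF1R and 13.8 to 35.4 TPM under BF10. Each treated group averaged above control, by 0.58 under BF10, 0.57 under IL-10-Fc and 0.50 under aCSF1R. The medians over all genes in those comparisons were 0.32, 0.35 and 0.24. The Bcl3 differences under the set term were 0.21, 0.20 and 0.13, with adjusted p of 0.942 or more.

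**Figure D3:**
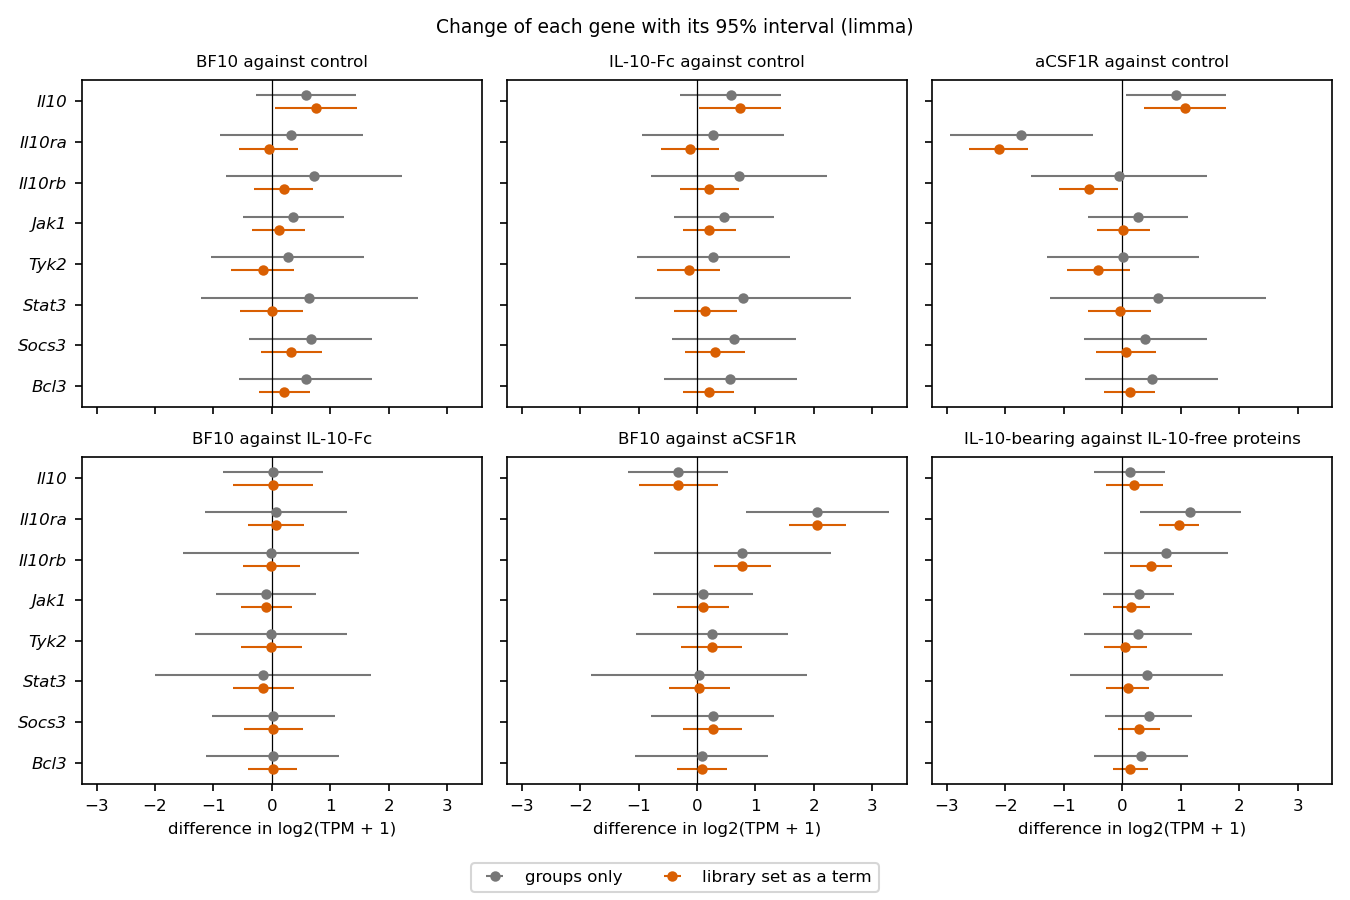
Difference in log2(TPM + 1) for each gene in the 6 comparisons with its 95% interval from limma, grey from the groups alone and orange with the library set as a term. Il10ra stands away from 0 in aCSF1R against control (-2.12 with the set), in BF10 against aCSF1R (2.06) and in tumors given IL-10 against those not given it (0.97), and the orange intervals are narrower for all 8 genes.

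Socs3 and Bcl3 are the members known as transcriptional targets, and the Socs3 upstream sequence is shown because a STAT-type element lies in it. The RefSeq table of GRCm38.p6 has an entry for 5 of the 8 genes (Bcl3, Jak1, Socs3, Stat3, Tyk2), and Il10, Il10ra and Il10rb are not shown. The 250 bases before each start were searched for TTCNNNGAA, a palindrome and so the same on both strands. It was present in 7.02% of all 32851 promoters of that length, in 1 of the 5 promoters of members (20%) and in 11 of 100 promoters of other pathway genes (11%). The match in Socs3 runs from 154 to 146 bases before the RefSeq start and is in capitals below, on the minus strand of chr11:117969367-117969616.
Socs3: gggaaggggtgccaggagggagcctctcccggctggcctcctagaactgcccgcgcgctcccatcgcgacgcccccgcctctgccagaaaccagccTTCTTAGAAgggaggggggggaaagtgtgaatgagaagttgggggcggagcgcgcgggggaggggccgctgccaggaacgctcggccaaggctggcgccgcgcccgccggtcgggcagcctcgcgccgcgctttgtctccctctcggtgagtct
The RefSeq start used in that table lies upstream of the start of the protein-coding GENCODE transcript, from which this window is separated by 180 bases, and the match then lies 334 to 326 bases before that start. The match describes letters in the window and nothing about factor binding in these tumors.

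The rest of the pathway was read from 8 lists of genes. Of the 11 other IL-10 family cytokines and receptors, 3 passed the filter on low values, and Il20, Il22, Ifnl2 and Ifnl3 were listed at 0 in all 12 libraries. No gene of this list was called in any of the 6 comparisons by either fit. Il24, a family cytokine, came nearest, 0.79 higher under IL-10-Fc and 0.76 higher under BF10 than in control at unadjusted p of 0.0135 and 0.0159 (limma adjusted p = 0.738 and 0.788).

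All 17 IL-6 family ligands and receptors, which also signal through STAT3, and all 8 other JAK kinases and STAT factors were tested, and 0 were called on the groups alone. With the set as a term 2 of the 17 were higher in BF10 than in aCSF1R tumors. These were Osm, encoding the cytokine oncostatin M (0.97 higher, adjusted p = 0.0269), and Il21r, the IL-21 receptor (1.19 higher, adjusted p = 0.0197). None of the 8 kinases and factors was called in any of the 6 comparisons under the set term either.

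Of 11 inhibitors of JAK-STAT signalling, Ptprc was called on the groups alone, 1.55 higher in BF10 than in aCSF1R tumors (SE 0.30, adjusted p = 0.0428). Under the set term, Ptprc was also 1.24 lower in aCSF1R than in control tumors (adjusted p = 0.0416). Ptpn6, encoding the leukocyte phosphatase SHP-1, was then 1.17 higher in BF10 than in aCSF1R tumors (adjusted p = 0.0197). Both genes are expressed in leukocytes at large, and the other 9 inhibitors were not called in any of the 6 comparisons.

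Of 14 listed genes that IL-10 induces in macrophages, 13 were above control under BF10 and 13 under IL-10-Fc, with medians of 0.73 and 0.80. The medians over all genes were 0.32 and 0.35, and with the set as a term the list medians were 0.36 and 0.40, against 0.07 and 0.10 over all genes. No gene of the list was called in those 2 comparisons, which share their control tumors. The smallest p fell on Zfp36, an mRNA-decay factor, under BF10 (1.55 higher, adjusted p = 0.788) and on Ddit4, an mTORC1 inhibitor, under IL-10-Fc (1.01 higher, adjusted p = 0.738). In tumors given IL-10 against those not given it, 14 of 14 were higher, with a median of 0.76 beside 0.22 over all genes. With the set as a term these medians were 0.56 and 0.09. The share of all genes with a positive difference was not counted in any of these comparisons. Tumors not given IL-10 include the aCSF1R tumors, which had the lowest macrophage marker sum, and the part of macrophage content was not tested.

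Called from that list on the groups alone was Fcgr1, the high-affinity Fc gamma receptor, which is also among the 12 macrophage markers. It read 36.4 to 42.5 TPM in control, 31.6 to 33.9 TPM under IL-10-Fc, 43.9 to 52.6 TPM under BF10 and 2.45 to 5.98 TPM under aCSF1R. It was 3.01 lower in aCSF1R than in control tumors (limma adjusted p = 0.000459), 3.28 higher in BF10 than in aCSF1R tumors (adjusted p = 0.000342) and 1.51 higher in tumors given IL-10 than in those not given it (adjusted p = 0.0169). The IL-10-Fc tumors were the lowest of the other 3 groups, so the last of these rests on the aCSF1R tumors. With the set as a term Il1rn, the IL-1 receptor antagonist, was also called, 1.05 higher in BF10 than in aCSF1R tumors (adjusted p = 0.0266).

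The last list held 13 inflammatory genes that IL-10 represses in cultured macrophages, of which 11 were tested (Il12a and Il12b were below the filter). In tumors given IL-10 against those not given it, 10 of the 11 differences were positive and 1 negative. Their median was 0.62, beside 0.22 over all genes, and with the set as a term 0.52, beside 0.09. The share of all genes with a positive difference was not counted, and the tumors not given IL-10 include the aCSF1R tumors. Against control, 8 of 11 were positive under BF10 and 9 of 11 under IL-10-Fc, and none was called. The medians there were 0.30 and 0.25 on the groups alone, under those of all genes (0.32 and 0.35). With the set as a term they were 0.35 and 0.31, above those of all genes (0.068 and 0.10). Called on the groups alone was Cd86, a T cell costimulator, 1.84 lower in aCSF1R than in control tumors (adjusted p = 0.0171). With the set as a term Il1a was 1.40 lower in aCSF1R than in control tumors (adjusted p = 0.0105). In BF10 against aCSF1R that fit called Il1a (1.55 higher, adjusted p = 0.00317), Cd86 (1.45, adjusted p = 0.00395) and Cd80 (0.99, adjusted p = 0.0407), and in tumors given IL-10 against those not given it Il1a (0.86 higher, adjusted p = 0.0306).

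Cxcl10, a chemokine for T cells on the same list, had the smallest p under BF10, 1.43 above control (adjusted p = 0.788). The genes of this list that were called, Il1a, Cd80 and Cd86, were each lowest in the aCSF1R tumors, the group with the lowest macrophage marker sum. Cd86 was 3.65 to 4.10 TPM there and 9.30 to 24.0 TPM in the 9 other tumors. Il1a averaged 14.4 TPM in control, 13.9 TPM under IL-10-Fc, 13.8 TPM under BF10 and 4.02 TPM under aCSF1R.

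The 15 general STAT3 targets gave 0 calls in the 6 comparisons by either fit. Their medians were 0.71 under BF10 and 0.73 under IL-10-Fc against control, beside 0.32 and 0.35 over all genes. With the set as a term they were 0.21 and 0.26, beside 0.07 and 0.10. For aCSF1R against control the list median was 0.25, beside 0.24 over all genes, and 0.15 with the set as a term, beside 0.0068. Fos, an immediate early gene, had the smallest p under BF10 (1.37 higher, adjusted p = 0.788), and Birc5, encoding survivin, under IL-10-Fc (0.80 higher, adjusted p = 0.738). Of 8 T cell effector genes 7 were tested and 0 were called by either fit. Under BF10 and under IL-10-Fc alike, 4 of the 7 were above control and 3 below. Their medians were 0.05 and 0.03, beside 0.32 and 0.35 over all genes. Among them Ifng was 0.69 higher under BF10 than in control tumors (adjusted p = 0.788). Gzmb, encoding granzyme B, was 1.41 higher under aCSF1R than in control tumors (adjusted p = 0.697). It was 1.36 lower in BF10 than in aCSF1R tumors (limma adjusted p = 0.643).

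**Figure D4:**
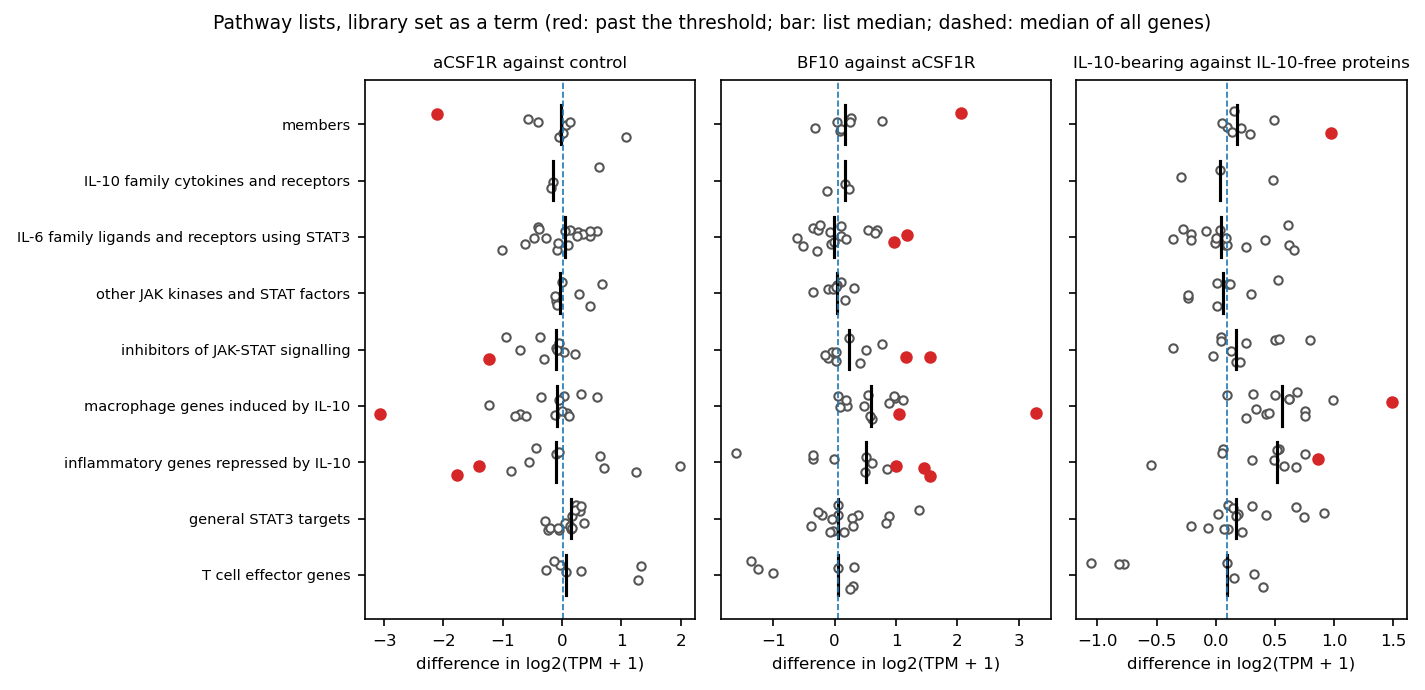
Difference in log2(TPM + 1) of each gene in the 8 members and the 8 pathway lists for 3 comparisons, with the library set as a term; red points passed the threshold, black bars are list medians and the dashed line is the median of all genes. The red points lie left of 0 in aCSF1R against control and right of 0 in the other 2 comparisons, led by Fcgr1 (-3.07, 3.28 and 1.48).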

How the data were processed

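RNA of 12 tumors was sequenced from stranded mRNA libraries on an Illumina NextSeq 550 and aligned by the authors to mm10 (GRCm38.101). The submitters' processing notes name STAR 2.7.5a, RSEM 1.3.3 and DESeq2 1.28.0. The deposited table holds FPKM per gene and library as made by the authors. Counts were not used here. The deposited result tables of the authors' own comparisons (fold changes and p-values) were not used.

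FPKM was rescaled to TPM in each library, and log2(TPM + 1) was fitted with limma 3.58.1 in R 4.3.3 (1 mean per group, all 12 libraries, empirical Bayes with trend). Genes under 1 TPM in more than 9 of the 12 libraries were left out. Fold changes are on that scale, which understates changes of low genes. P-values were Benjamini-Hochberg adjusted over 15504 genes, and a call needed an adjusted p below 0.05 and 1.5-fold. The script was tested on simulated data. Since FPKM keeps no counts, depth was estimated from the value of a single read in short genes. Library sets were split at an FPKM sum of 700000.

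The members and gene lists were chosen with earlier results of these data known. The 8 genes were named in every comparison, with list genes past the threshold (up to 6 a list) or, failing that, the gene of smallest p, and the 3 genes most like a member. One list gene that the rule would name is not reported here. Alternatives were another pseudocount, scaling, filter and sample set, the library set or replicate number as a term, and each library left out in turn.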

Additional observations from a re-analysis of the deposited data

Results flagged for a closer look

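For Il10ra, BF10 differed from aCSF1R more than IL-10-Fc differed from control in the set-term fit, and this was not called on the groups alone. BF10 is a separate protein dosed at another weight, so the value is not that of IL-10 added to aCSF1R. With the library set as a term, BF10 against aCSF1R (both carrying the antibody) minus IL-10-Fc against control (neither carrying it) came to 2.18 on the log2(TPM + 1) scale (SE 0.32, 95% interval 1.49 to 2.88, limma adjusted p = 0.00567). On the groups alone the value was 1.79 (interval 0.07 to 3.52, adjusted p = 0.975). Il10ra was higher in all 3 BF10 tumors than in all 3 aCSF1R tumors, while the IL-10-Fc and control tumors overlapped. The macrophage marker sum was 1902 to 1988 TPM under BF10 and 91.5 to 275 TPM under aCSF1R, and its part in this difference was not tested.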

How the results depend on the processing

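No gene of the 8 was called on the groups alone, and Il10ra was the 1 gene called under an alternative. The count of called genes became 1 of 8 for aCSF1R against control under median-of-ratios scaling (Il10ra -2.05, adjusted p = 0.0102) and under the set term, for BF10 against aCSF1R under FPKM without rescaling (Il10ra 1.96, adjusted p = 0.0405), median-of-ratios scaling (2.04, adjusted p = 0.0103), the library set as a term and lower-sum libraries only (1.85, adjusted p = 0.022), and for IL-10 given against not given under the set term. It stayed at 0 in the other fits. Among all genes tested, aCSF1R against control gave 136 calls under median-of-ratios scaling and 88 on the groups alone. BF10 against aCSF1R gave 160 without rescaling, 141 under median-of-ratios scaling, 155 in lower-sum libraries only and 114 on the groups alone. Under the set term those comparisons gave 312 and 437, and IL-10 given against not given had 216, with 22 on the groups alone. Each of these fits thus called more genes than the groups alone. Over single genes, 321 of 376 differences kept their sign and side of the threshold under alternatives that kept all libraries or the lower-sum set, 7 became called and 48 changed sign. Fits on the groups of a comparison alone were not run for IL-10 given against not given, where all 12 libraries enter. The fits that left out a library under the set term were chosen after seeing the data.

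The differences that changed sign were, with the library set as a term, Il10ra -0.055, Stat3 -0.0056 and Tyk2 -0.15 for BF10 against control, Il10ra -0.12 and Tyk2 -0.14 for IL-10-Fc against control, and Stat3 -0.045 and Tyk2 -0.41 for aCSF1R against control. With median-of-ratios scaling they were Bcl3 -0.046, Jak1 -0.034 and Stat3 -0.091 for BF10 against aCSF1R, Il10 -0.11 and Jak1 -0.00064 for IL-10 given against not given, Il10ra -0.012 and Tyk2 -0.075 for BF10 against control, Il10ra -0.14 and Tyk2 -0.12 for IL-10-Fc against control, Il10rb 0.052 and Tyk2 0.045 for BF10 against IL-10-Fc, and Tyk2 -0.22 for aCSF1R against control. With lower-sum libraries only they were Bcl3 -0.053, Jak1 -0.16 and Stat3 -0.24 for BF10 against aCSF1R, Il10ra -0.11 and Tyk2 -0.25 for IL-10-Fc against control, Il10rb 0.21 and Tyk2 0.10 for BF10 against IL-10-Fc, Jak1 -0.060, Stat3 -0.10 and Tyk2 -0.10 for IL-10 given against not given, Tyk2 -0.15 for BF10 against control, and Tyk2 -0.19 for aCSF1R against control. Without rescaling of FPKM they were Il10rb 0.017 and Tyk2 0.011 for BF10 against IL-10-Fc, and Tyk2 -0.15 for aCSF1R against control, and with a pseudocount of 0.1 Tyk2 -0.0031 for aCSF1R against control. Nearly all were small on the groups alone, and the cause was not tested.

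Leaving out 1 library called no gene, and 46 of 576 differences changed sign. Their ranges follow. For BF10 against IL-10-Fc they were Bcl3 -0.33 to 0.35, Il10ra -0.20 to 0.46, Socs3 -0.25 to 0.39, Il10rb -0.39 to 0.54, Jak1 -0.26 to 0.084, Stat3 -0.62 to 0.47, Tyk2 -0.30 to 0.38 and Il10 -0.22 to 0.26. For BF10 against aCSF1R they were Bcl3 -0.39 to 0.42, Jak1 -0.34 to 0.37, Stat3 -0.86 to 0.66, Socs3 -0.26 to 0.63 and Tyk2 -0.35 to 0.69. For BF10 against control they were Tyk2 -0.036 to 0.67. For aCSF1R against control they were Jak1 -0.0056 to 0.71, Tyk2 -0.42 to 0.62 and Il10rb -0.42 to 0.65. For IL-10 given against not given they were Stat3 -0.034 to 0.73, Tyk2 -0.036 to 0.48 and Il10 -0.027 to 0.28. For IL-10-Fc against control they were Tyk2 -0.024 to 0.69.

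Whether replicate numbers in the labels pair the tumors could not be told from these values. The deviations of same-numbered libraries from their group means correlated between -0.66 and 0.42 over 7 pairs, positive only within a library set. Set means were not taken off there, so the sign of a correlation followed the library set. A fit with the replicate block called 0 of the 8 genes in each comparison, and under it the differences that changed sign were Bcl3 -0.46, Il10 0.30, Il10rb -0.23, Jak1 -0.45, Socs3 -0.39, Stat3 -1.15 and Tyk2 -0.61 for BF10 against aCSF1R, Il10rb 0.18, Stat3 0.37 and Tyk2 0.22 for BF10 against IL-10-Fc, Il10rb 1.45 for aCSF1R against control, and Stat3 -0.026 and Tyk2 -0.073 for IL-10 given against not given.

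Il10 rests on about 7 to 166 reads a library, and its level limits what can be detected. Library set and treatment are partly mixed, with 2 of 3 control tumors and 1 of 3 tumors in each treated group in the higher-sum set.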

Other observations

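Among the genes most like each member over the 12 libraries after the mean of each library set was removed, Il10rb ran closest to Ripk3 (r = 0.968), Actr3 (0.967) and Snx18 (0.966), and Stat3 to Slc12a7 (0.985), Fbxw11 (0.968) and Fam117b (0.965). Jak1 ran closest to Col6a1 (0.972), Castor2 (0.969) and Tln2 (0.967), and Tyk2 to Cirbp (0.963), Plcd1 (0.943) and Ap1g2 (0.939). For Socs3 the nearest were Rsc1a1 (0.917), Gm2395 (0.907) and Mafk (0.895), for Bcl3 Gm15079 (0.975), Rgcc (0.972) and Mdfi (0.957), and for Il10 Olfr753-ps1 (0.945), Gbp6 (0.938) and Nppb (0.929). The libraries share treatments and library sets, and the coefficients are descriptions. Neutrophil markers (S100a8, S100a9, Csf3r, Cxcr2, Retnlg, Mmp8, Ly6g) summed to 16498 TPM in BF10 3 and to 429 to 3346 TPM in the 11 other libraries, and that library had the highest Il10ra (19.8 TPM), Il10rb (51.7 TPM) and Bcl3 (35.4 TPM) levels of the 12.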
